A study of Mus musculus with 4 samples.

Results

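A set of 10 genes that carry fatty acids from the blood into the heart muscle cell and prepare them for use was followed here: Lpl, Gpihbp1, Angptl4, Cd36, Slc27a1, Fabp3, Fabp4, Acsl1, Plin5 and Pnpla2. They were taken by GENCODE mouse symbol from a table of 54752 gene identifiers, and all 10 were found, had counts in every library and passed the filter on low counts that left 15283 genes to be tested. Total RNA came from mouse heart tissue at postnatal day 14, with 2 wild-type libraries and 2 from hearts given as Carm1 mutant, called mutant below. The protein made from Carm1 is an arginine methyltransferase that acts on histones and transcriptional coactivators. Allele, Cre driver, strain, treatment and sex are not in the labels, nor is it stated that each library is a different animal, so each p-value measures the spread between these libraries, which may be technical.

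In the heart, fatty acids arrive as triglyceride in lipoproteins or bound to albumin. Lipoprotein lipase, anchored to the capillary wall, releases them. Carriers at the membrane and binding proteins in the cytosol pass them on to an acyl-CoA synthetase, which traps them in the cell for oxidation or for storage in lipid droplets. After birth the heart turns from glucose and lactate to fatty acids as its main fuel, and many genes of this route are known targets of PPAR nuclear receptors.

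Library totals ranged from 11677604 to 22217442 counts, and the 10 genes together took 0.765% and 0.753% of the wild-type counts and 0.624% and 0.620% of the mutant counts. Carm1 itself had 803 and 1025 counts in wild type against 897 and 432 in mutant hearts, which is 45.9 and 52.4 against 35.8 and 31.8 CPM (counts scaled to a common library size, with TMM factors). Its difference did not pass the test (log2 fold change −0.54, SE 0.19, edgeR FDR 0.114), and a count over the whole gene cannot check an allele that removes part of it. Transcripts of the Y chromosome (Uty, Eif2s3y, Kdm5d, Ddx3y) had counts of 170 to 939 in each wild-type library and of 0 to 5 in each mutant library, while Xist had 12 and 15 against 8116 and 3921. Genotype label and sex therefore cannot be told apart in any comparison below. Markers of heart muscle were present in every library, for example Tnnt2, cardiac troponin T, at 5311 CPM or more.

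Of the 10 genes, 3 were lower in the mutant hearts, 0 were higher and 7 did not pass the test. The genes that fell were Acsl1, the main long-chain acyl-CoA synthetase of the heart, Plin5, a lipid droplet coat protein, and Angptl4, a secreted inhibitor of lipoprotein lipase. The wild-type means of these 3 were 2.15 times (Angptl4), 2.46 times (Acsl1) and 2.86 times (Plin5) the mutant means. At the other end of the set, Gpihbp1 and Fabp4, which in the heart are known from the capillary endothelium, had 97.3% and 90.4% of their wild-type means, and their groups overlapped. The test was edgeR's quasi-likelihood test with an FDR (Benjamini-Hochberg adjusted p over all genes tested) of 0.05. By that rule 7.37% of all tested genes were called, 4.58% lower and 2.79% higher. Among the 2553 genes at least as abundant as Angptl4, the least abundant of the 10, 11.1% were lower and 1.14% higher.

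**Figure D1:**
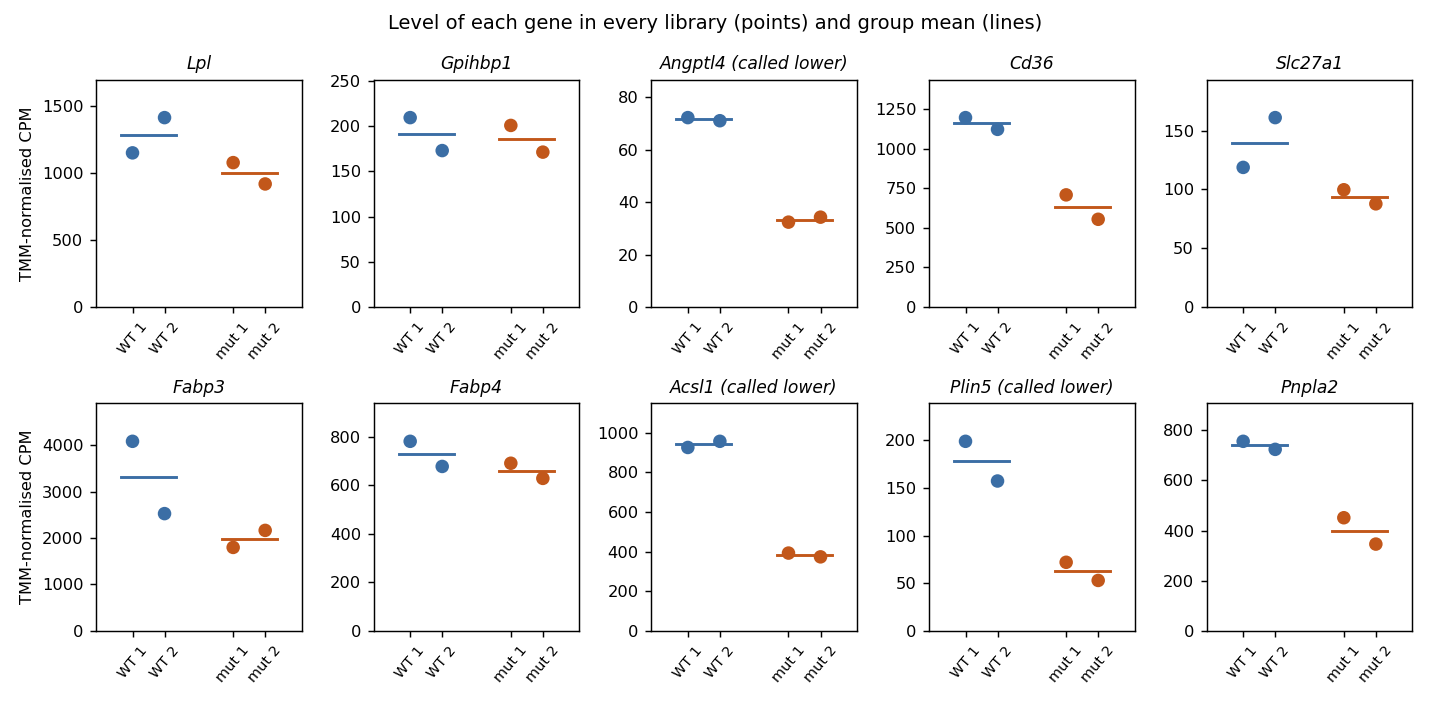
CPM (TMM-scaled counts) of each gene (vertical axis, from 0) in the 2 wild-type libraries (blue) and the 2 mutant libraries (orange), with lines at the group means. The groups do not overlap for 8 genes, and overlap for Gpihbp1 and Fabp4.

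In 8 of the 10 genes both mutant libraries lay below both wild-type libraries, which held for 28.7% of all tested genes (30.3% lay above and 59% did not overlap in either direction). The median log2 fold change of the 10 was −0.81, against 0.02 over all tested genes and −0.24 over the genes at least as abundant as Angptl4. All 10 fitted values were negative with TMM factors, from −0.04 to −1.51. So were 48.4% of all tested genes and 68.4% of the genes at least as abundant as Angptl4. The values of Lpl, Fabp4 and Gpihbp1 were positive with library totals. With library totals in place of TMM factors the median over all genes moved up by 0.39 on the log2 scale. Under that scaling the mutant libraries were below in 5 genes, above in 2 (Fabp4 and Gpihbp1) and overlapping in 3 (Fabp3, Lpl and Slc27a1). The shares of all tested genes given above hold for TMM factors only, and none is given here for library totals. The median of the 10 was then −0.40, which is 0.81 below the median of all genes, against 0.83 below it with TMM factors.

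The number of the 10 genes called lower varied with the setting, as did the share of all tested genes. With library totals 2 of the 10 were lower, against 1.35% of all genes. It was 3 of 10 with DESeq2 size factors (4.47%), upper-quartile factors (3.62%), mitochondrially encoded genes left out (4.56%), a filter of 1 CPM in 2 libraries (5.09%), limma-voom (4.59%) and a block for the replicate number (4.2%). It was 5 of 10 at an FDR of 0.10 (9.23%), 6 of 10 with no filter (5.52%), with the DESeq2 Wald test (7.29%) and with a block that pairs unlike replicate numbers (14%), and 7 of 10 with an offset for transcript length and GC content (11.3%). Without wild type replicate 1 it was 7 (8.76%), without wild type replicate 2 it was 6 (19.5%), without mutant replicate 1 it was 1 (1.15%, Plin5) and without mutant replicate 2 it was 0 (0.987%).

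**Figure D2:**
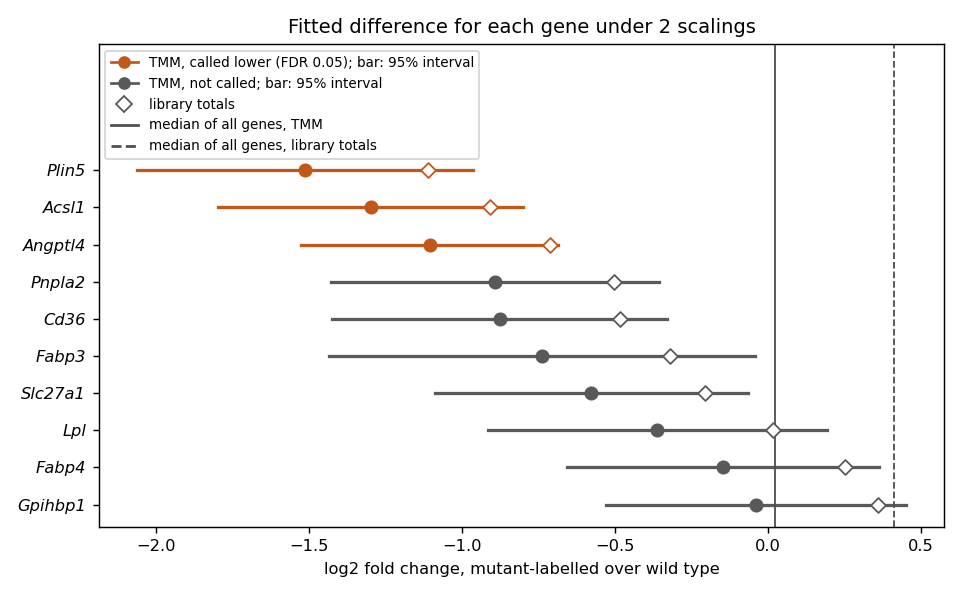
Log2 fold change of each gene, mutant over wild type, with its 95% interval (filled circles, TMM scaling) and the value with library totals (open diamonds). Plin5, Acsl1 and Angptl4 (orange) were called lower. The vertical lines are the medians of all tested genes under the 2 scalings, which lie 0.39 apart.

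The enzyme and its partners in the capillary did not share a pattern. Lpl encodes lipoprotein lipase, which heart muscle cells make and secrete (ENSMUSG00000015568, GRCm38 chromosome 8, 68880491 to 68907448, plus strand). It had 1150 and 1413 CPM in wild type against 1078 and 918 CPM in mutant hearts. The groups did not overlap, but the lowest wild-type value was only 1.07 times the highest mutant value. Its log2 fold change was −0.36 (SE 0.24, 95% interval −0.92 to 0.19, edgeR FDR 0.364), and 0.018 with library totals.

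Gpihbp1 encodes the protein that moves lipoprotein lipase across capillary endothelium and anchors it in the lumen (ENSMUSG00000022579, chromosome 15, 75596628 to 75599481, plus strand). It had 209 and 173 CPM in wild type against 201 and 171 CPM in mutant hearts, so each mutant library had a wild-type library close to it. The log2 fold change was −0.04 (SE 0.21, edgeR FDR 0.922), and the bounds of the 95% interval were 69.2% and 137% of wild type. The sign turned with the setting, from 0.36 with library totals to −0.21 without wild type replicate 2.

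Angptl4 inactivates lipoprotein lipase and is induced by fatty acids through PPAR receptors in several tissues (ENSMUSG00000002289, chromosome 17, 33773750 to 33781830, minus strand). It had 72.2 and 71.0 CPM in wild type against 32.3 and 34.2 CPM in the mutant libraries. With TMM factors the libraries of a group nearly coincided, and the groups were far apart. Scaled by library totals, Angptl4 had 58.1 and 66.9 CPM in wild type against 36.5 and 39.8 CPM. With TMM factors Angptl4 fell by 1.11 on the log2 scale (SE 0.18, 95% interval −1.53 to −0.68, edgeR FDR 0.0192), to 46.5% of the wild-type mean. The call was lost with library totals (log2 fold change −0.71, edgeR FDR 0.0597) and without mutant replicate 1 (−1.07, SE 0.43, edgeR FDR 0.209) or mutant replicate 2 (−1.15, SE 0.43, edgeR FDR 0.161), where the fold stayed and the SE was larger; adjusted p over its 16 alternatives ran from 5.8e-07 to 0.209.

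Per length of transcript, Angptl4 stood at 0.0780 and 0.0625 of Lpl in wild type against 0.0373 and 0.0464 in mutant hearts. Gpihbp1 stood at 0.454 and 0.305 of Lpl against 0.464 and 0.465. Such ratios within a library do not depend on the scaling between libraries. The first was lower and the second higher in the mutant libraries without overlap. Transcript length was related to the levels of genes to an unlike degree in each library. Spearman's rho of length with a gene's deviation from its mean was −0.345 and 0.280 in wild type against 0.209 and −0.0036 in mutant libraries. This can enter a ratio of genes of unlike length, such as Gpihbp1 (1652 bases) and Lpl (4115 bases). For each ratio the two-sided exact permutation p was 0.333, and with 2 libraries a group no smaller p can be had. The ratios between genes were chosen after their values were seen.

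Both membrane carriers had lower values in the mutant libraries, and neither was called. Cd36 encodes a scavenger receptor that takes up long-chain fatty acids and is present on capillary endothelium and heart muscle cells (ENSMUSG00000002944, chromosome 5, 17781690 to 17888801, minus strand). It had 1197 and 1123 CPM in wild type against 709 and 555 CPM. The lowest wild-type library was 1.58 times the highest mutant one. For Cd36 the log2 fold change was −0.88 (SE 0.24, 95% interval −1.42 to −0.33, edgeR FDR 0.0630). With library totals Cd36 had a value of −0.48 (edgeR FDR 0.132). The Wald test of DESeq2 called it at an adjusted p of 0.00244; over its 16 alternatives the adjusted p ran from 0.00125 to 0.598.

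Slc27a1 encodes a fatty acid transport protein that also has acyl-CoA synthetase activity (ENSMUSG00000031808, chromosome 8, 71568882 to 71587302, plus strand). It had 119 and 161 CPM in wild type against 99.7 and 87.7 CPM. Here the wild-type libraries differed from each other more than wild type replicate 1 differed from the mutant libraries. For Slc27a1 the fitted value was −0.58 on the log2 scale (SE 0.22, edgeR FDR 0.139). It was −0.79 without wild type replicate 1, where the gene was called (edgeR FDR 0.00630), and −0.38 without wild type replicate 2; the adjusted p over its alternatives ran from 0.00630 to 0.693.

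The cytosolic binding proteins behaved differently from each other in level and in spread. Fabp3, the heart-type fatty acid binding protein of muscle cells, was the most abundant of the 10 genes (ENSMUSG00000028773, chromosome 4, 130308595 to 130315463, plus strand). It had 4090 and 2529 CPM in wild type against 1799 and 2167 CPM, and held 31.7% to 43.0% of the counts of the set in a library. Wild type replicate 1 was high, and the other 3 libraries lay closer together. The log2 fold change was −0.74 (SE 0.30, 95% interval −1.44 to −0.04, edgeR FDR 0.159). Without wild type replicate 1 it was −0.37 and without wild type replicate 2 it was −1.08. With the length and GC offset it was −0.65. Fabp3 is short (823 bases), and short transcripts tended to be high in wild type replicate 1 (Spearman's rho of deviation with length −0.345). The part of this in the Fabp3 values was not tested. A processed copy, Fabp3-ps1, is 99.3% identical to it over 402 bases and had 438 to 797 counts, or 1.1% to 1.49% of those of Fabp3. The 3′ end of Fabp3 also overlaps Zcchc17 on the other strand (331 to 555 counts). No source used here gives the strand setting of the counting or its treatment of copies, so the Fabp3 values are uncertain to that extent.

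Fabp4, the adipocyte-type binding protein, is made in the heart by capillary endothelium and also by macrophages (ENSMUSG00000062515, chromosome 3, 10204088 to 10208576, minus strand). It had 782 and 678 CPM in wild type against 691 and 629 CPM in mutant hearts, and the groups overlapped. Fabp4 had a log2 fold change of −0.15 (SE 0.22, edgeR FDR 0.710), with an interval of 63.5% to 129% of the wild-type level; with library totals it was 0.25. Of 10 adipocyte markers, Lep and Retn had 0 counts in every library, Adipoq had 0 to 4, Cfd 0 to 6 and Plin1 0 to 10. Ucp1, the uncoupling protein of brown fat, had 33 and 4 counts in wild type against 0 and 0. The list summed to 141 and 110 CPM in wild type against 91.7 and 86.5 CPM in mutant hearts, nearly all of it from Cidea (69.1 and 45.6 against 31.7 and 40.4 CPM, edgeR FDR 0.130) and Lipe (68.3 and 63.8 against 59.7 and 45.9 CPM, edgeR FDR 0.347), which heart muscle also expresses. Macrophage markers numbered 10, of which 0 were called, with a summed level of 208 to 259 CPM in wild type against 247 to 280 CPM in mutant hearts. The part of either cell type in the Fabp4 value was not tested.

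Per length of transcript, Fabp3 made up 85.1% and 80.2% of Fabp3 plus Fabp4 in wild type against 73.9% and 79.0% in mutant hearts. The group means were 82.7% ± 3.4 and 76.4% ± 3.6 (SD, n = 2 each). The groups did not overlap, and the exact permutation p was 0.333. The gap between the nearest libraries of the groups, 80.2% and 79.0%, was smaller than the SD within either group.

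Of the long-chain acyl-CoA synthetases, Acsl1 was the only one called. Acsl1 (ENSMUSG00000018796, chromosome 8, 46471037 to 46536051, plus strand) had 925 and 956 CPM in wild type against 392 and 373 CPM in the mutant libraries. The lowest wild-type value was 2.36 times the highest mutant value, and libraries of a group differed little with TMM factors. Scaled by library totals, Acsl1 had 745 and 901 CPM in wild type against 442 and 434 CPM. With TMM factors Acsl1 fell by 1.30 on the log2 scale (SE 0.22, 95% interval −1.80 to −0.80, edgeR FDR 0.0195), to 40.7% of the wild-type mean. It was called under each scaling tried, also with library totals (−0.91, edgeR FDR 0.0374). Without mutant replicate 1 or mutant replicate 2 the fold change stayed at −1.34 and −1.27, but the call was lost (edgeR FDR 0.216 and 0.244); adjusted p over its alternatives ran from 1.4e-07 to 0.244.

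Acsl1 made up 97.3% and 97.5% of the counts per length over the Acsl genes in wild type against 92.7% and 92.6% in mutant hearts, the exact permutation p being 0.333. The remainder was mostly Acsl5, at 1.31% and 1.09% against 3.59% and 4.40%, and Acsl4, at 0.657% and 0.845% against 2.08% and 1.69%. Neither Acsl5 (log2 fold change 0.50, edgeR FDR 0.159) nor Acsl4 (0.11, edgeR FDR 0.810) was called. Slc27a1, by contrast, made up 79.0% and 85.1% of the Slc27a genes in wild type against 80.3% and 77.1% in mutant hearts, and these shares overlapped (exact permutation p = 0.667). Slc27a4 supplied most of the rest, at 12.6% to 19.5%.

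**Figure D3:**
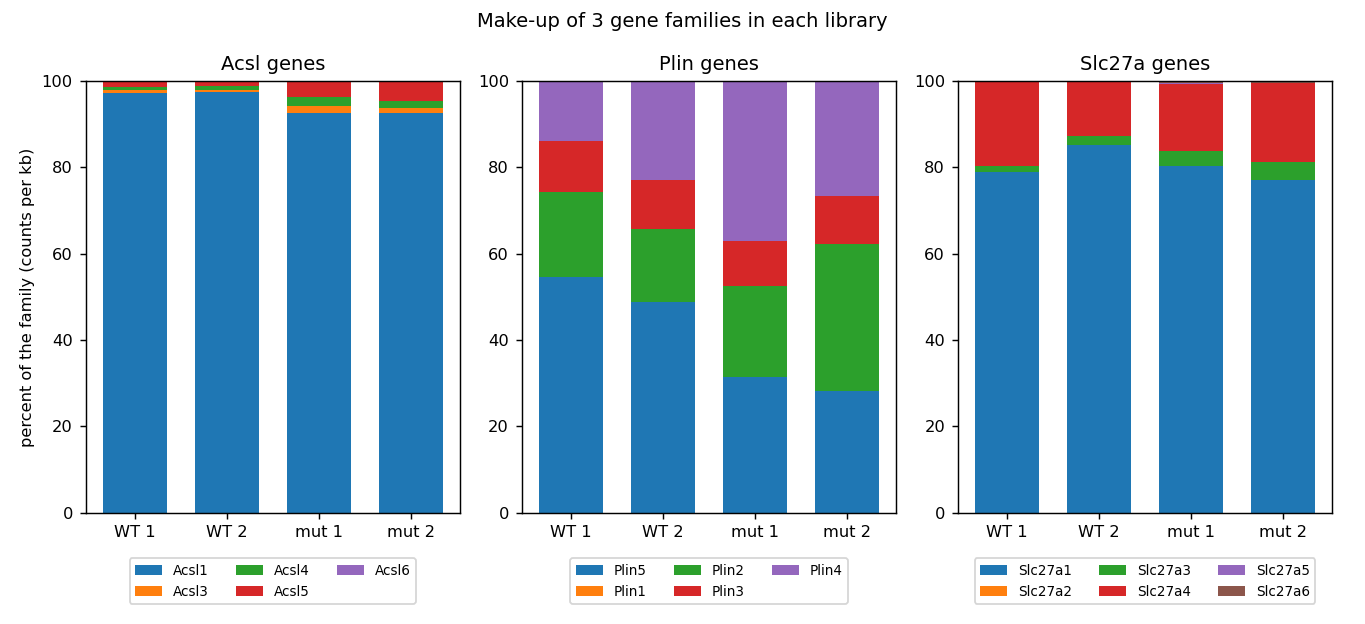
Percent of the counts per kilobase of transcript that each gene contributes to the Acsl, Plin and Slc27a families in each library (WT, wild type; mut, mutant). Acsl1 holds over 92% of its family in every library, Plin5 holds 54.5% and 48.8% in wild type against 31.4% and 28.3%, and the Slc27a1 shares overlap.

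The lipid droplet genes ended with the lowest fitted value of the set. Plin5 coats droplets in oxidative tissues, tethers them to mitochondria and restrains their lipolysis (ENSMUSG00000011305, chromosome 17, 56111601 to 56117596, minus strand). It had 199 and 157 CPM in wild type against 71.9 and 52.9 CPM. Both mutant libraries were less than the lower wild-type library by a factor of at least 2.19. Plin5 fell by 1.51 on the log2 scale (SE 0.24, 95% interval −2.06 to −0.96, edgeR FDR 0.0169), to 35.0% of the wild-type mean. It was called in 15 of 16 alternatives and not without mutant replicate 2 (−1.32, edgeR FDR 0.133); the adjusted p ran from 2.3e-10 to 0.133.

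Pnpla2 encodes adipose triglyceride lipase, which starts the breakdown of stored triglyceride (ENSMUSG00000025509, chromosome 7, 141455198 to 141460743, plus strand). It had 756 and 724 CPM in wild type against 451 and 346 CPM, again without overlap. The log2 fold change was −0.89 (SE 0.23, 95% interval −1.43 to −0.36), and the gene was not called (edgeR FDR 0.0571). With library totals Pnpla2 had a value of −0.50 (edgeR FDR 0.130). It was called by DESeq2 (adjusted p 0.00221), within an adjusted p of 0.00140 to 0.586 over its alternatives.

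Plin5 stood at 0.348 and 0.287 of Pnpla2 per length in wild type against 0.211 and 0.202 in mutant hearts. Within its own family Plin5 held 54.5% and 48.8% in wild type against 31.4% and 28.3% in mutant hearts, a mean difference of −21.9 percentage points (exact permutation p = 0.333 for each). Plin2, the droplet coat found in most tissues, had 68.0 and 51.9 CPM against 45.7 and 60.4 CPM and overlapped. Plin4 had 146 and 214 CPM against 246 and 144 CPM, so its share of the family varied between libraries of a group. Pnpla2 made up 94.0% and 94.1% of Pnpla2 plus Lipe (hormone-sensitive lipase) per length in wild type and 91.4% in each mutant library.

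Per kilobase of transcript the order of the 10 levels in wild type was Fabp3 (4021 CPM per kb), Fabp4 (815), Cd36 (341), Lpl (312), Pnpla2 (282), Acsl1 (241), Gpihbp1 (116), Plin5 (89.8), Slc27a1 (50.03) and Angptl4 (21.6). In the mutant libraries the means were 2409 for Fabp3, 737 for Fabp4, 243 for Lpl, 186 for Cd36 and 152 for Pnpla2. Gpihbp1 followed at 113, Acsl1 at 98.2, Slc27a1 at 33.5, Plin5 at 31.4 and Angptl4 at 10.1. No gene moved by more than 1 place. Cd36 and Lpl were neighbours whose wild-type libraries overlapped (352 and 330 against 280 and 343 CPM per kb). Acsl1 was 1.87 and 2.34 times Gpihbp1 in the wild-type libraries and 0.828 and 0.923 times Gpihbp1 in the mutant ones. The order of this pair therefore differed between the groups. Their transcripts differ in length (3897 and 1652 bases), so the length effect of a library can enter this ratio.

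Promoter sequences at RefSeq starts (GRCm38.p6) were at hand for 6 of the genes, with 10 windows of 250 bases before a start. No sequence was at hand for Lpl, Gpihbp1, Fabp4 or the called gene Angptl4, so these were not searched. The windows of the called genes Acsl1 and Plin5 are shown because these genes fell, and that of Cd36, at a start inside the annotated gene, because it alone held a near match to the direct repeat that PPAR binds with RXR. Bases that GENCODE places in an exon are left out, so the Plin5 window ends early, and a second Plin5 window is not shown. Capitals mark GGGCGG (the GC box), AGGTCA (the nuclear receptor half-site, TGACCT on the other strand) and, near the end of the Cd36 window, the near match.
Acsl1, first start, chr8:46470787-46471036, plus strand: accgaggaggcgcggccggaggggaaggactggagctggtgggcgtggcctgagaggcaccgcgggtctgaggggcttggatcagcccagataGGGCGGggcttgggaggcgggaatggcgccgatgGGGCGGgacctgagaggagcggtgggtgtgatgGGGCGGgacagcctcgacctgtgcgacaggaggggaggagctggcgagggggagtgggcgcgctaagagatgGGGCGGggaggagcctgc
Acsl1, second start, chr8:46490716-46490965, plus strand: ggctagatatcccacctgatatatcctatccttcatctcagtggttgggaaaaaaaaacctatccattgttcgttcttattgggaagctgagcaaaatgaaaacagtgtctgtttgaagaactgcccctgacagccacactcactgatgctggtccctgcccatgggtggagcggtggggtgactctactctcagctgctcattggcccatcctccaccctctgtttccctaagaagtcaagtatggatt
Plin5, chr17:56117597-56117798, minus strand: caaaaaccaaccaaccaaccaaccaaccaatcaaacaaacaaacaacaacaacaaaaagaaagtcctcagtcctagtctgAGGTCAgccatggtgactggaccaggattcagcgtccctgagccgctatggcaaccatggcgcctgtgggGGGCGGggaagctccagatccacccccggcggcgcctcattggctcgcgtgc
Cd36, chr5:17835897-17836146, minus strand: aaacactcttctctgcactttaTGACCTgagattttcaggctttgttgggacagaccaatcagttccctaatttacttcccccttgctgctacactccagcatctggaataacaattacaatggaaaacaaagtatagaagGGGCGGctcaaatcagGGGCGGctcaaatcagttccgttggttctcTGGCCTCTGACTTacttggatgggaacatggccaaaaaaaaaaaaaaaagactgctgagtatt

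The Acsl1 windows differ in composition: the first is 72.0% G and C with 4 GC boxes, the second 48.4% with 0. Motifs were searched on both strands of all 250 bases of each window, so exon bases left out of the print were included. The Fabp3 window, which is not shown, lies wholly in annotated exons. The GC box was in 7 of the 10 windows, against 32.7% of all 32851 RefSeq windows of the same length. AGGTCA was in 2 of 10 (Cd36 and Plin5), against 14.02%, and the E-box CACGTG in 1 of 10 (Slc27a1), against 6.02%. TATAAA (12.4% of all windows) and TCAAGGTCA (0.387%), a site of estrogen-related receptors that contains AGGTCA, were in 0 of 10. The direct repeat, AGGTCA followed after 1 base by AGGTCA, was in 0 of 10 without a mismatch and in 1 of 10 with at most 2 mismatches, against 0.0335% and 3.24% of all windows. Windows of a gene are not independent, and a match describes these letters only; sites farther away were not searched.

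Because the hearts were bulk samples, fewer cells of a type and less RNA per cell cannot be told apart. The summed levels of endothelial, heart muscle and fibroblast markers differed between the groups without overlap, although few single markers passed the test. The 12 endothelial markers summed to 1253 and 1609 CPM in wild type against 2152 and 1887 CPM in mutant hearts; 1 was higher (Cldn5, log2 fold change 1.12, edgeR FDR 0.0257) and 0 were lower. Pecam1 had 231 and 272 against 330 and 280 CPM, Cdh5 288 and 429 against 636 and 547, and Tie1 161 and 216 against 271 and 211. The 12 heart muscle markers summed to 94869 and 79794 CPM in wild type against 48099 and 51989 CPM in mutant hearts; 1 was lower (Pln, phospholamban, −0.90, edgeR FDR 0.0443) and 0 were higher. Their median log2 fold change was −0.82, close to the −0.81 of the fatty acid genes. Fibroblast markers summed to 2367 and 2701 against 4147 and 4496 CPM. The part of cell composition in the results was not tested.

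**Figure D4:**
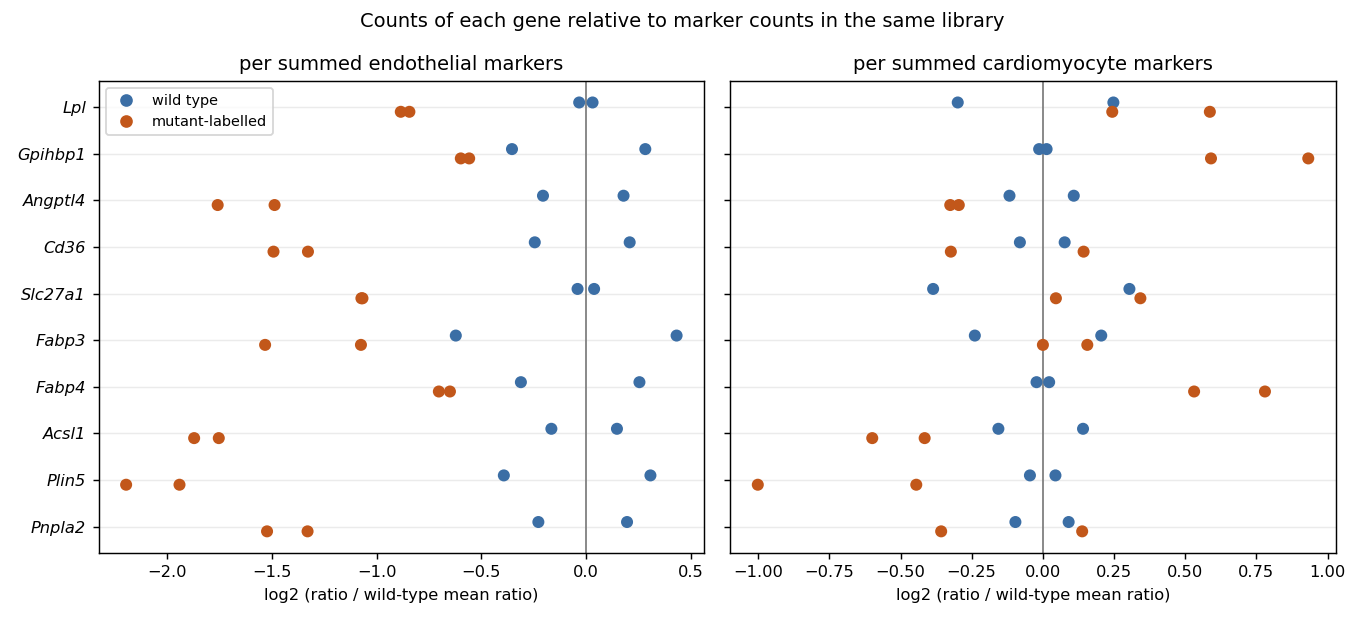
Counts of each gene divided by the summed counts of 12 endothelial (left) or 12 cardiomyocyte (right) markers in the same library, as log2 of the ratio over the wild-type mean (blue, wild type; orange, mutant). All 10 genes lie lower per endothelial marker; per cardiomyocyte marker 3 lie lower, 2 higher and 5 overlap.

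Relative to the muscle markers in the same library, which were lower in sum in the mutant hearts, 79.3% of all tested genes were above wild type in both mutant libraries and 4.2% were below. Acsl1, Plin5 and Angptl4 were lower in both mutant libraries: per 100 muscle marker counts, Acsl1 had 0.975 and 1.20 counts in wild type against 0.815 and 0.717, Plin5 had 0.210 and 0.197 against 0.150 and 0.102, and Angptl4 had 0.0761 and 0.0890 against 0.0672 and 0.0659. Fabp4 (0.824 and 0.850 against 1.44 and 1.21) and Gpihbp1 (0.221 and 0.217 against 0.417 and 0.329) were higher in both. For Cd36, Pnpla2, Fabp3, Lpl and Slc27a1 the groups overlapped; Cd36, for example, had 1.26 and 1.41 against 1.47 and 1.07. The division was 3, 2 and 5 also when each marker was given equal weight by a geometric mean. Relative to the endothelial markers all 10 genes were lower in both mutant libraries, with log2 ratios from −0.58 (Gpihbp1) to −2.06 (Plin5). The endothelial sum was higher in the mutant hearts, and by this ratio 55.2% of all tested genes were below and 9.92% above. These ratios were chosen after the values were seen and carry no test, and the called genes are those with the largest fitted decrease in the fit above, so the ratios are not separate support for them.

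The wider route was described by 93 other genes of fatty acid uptake, activation, storage and release, of which 72 were tested. Lower calls numbered 17, higher calls 1, and 54 genes did not pass, with a median log2 fold change of −0.21; over all tested genes 4.58% were lower and 2.79% higher. With library totals the calls were 5 lower (Gpam, Lpin1, Dgat2, Fitm2 and Acss1) and 8 higher, against 1.35% and 7.78% of all genes. Every other lower call named below was lost under that scaling, and Meox2 remained higher. The counts of the roles were not tested against each other. The median log2 fold change of the 12 heart muscle markers was −0.82. The genes of the wider list were not set against these markers, so a fall named below may be no larger than theirs. Without mutant replicate 1 there were 4 lower calls (Gpam, Lpin1, Fitm2 and Acss1), and without mutant replicate 2 there were 2 (Gpam and Lpin1).

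**Figure D5:**
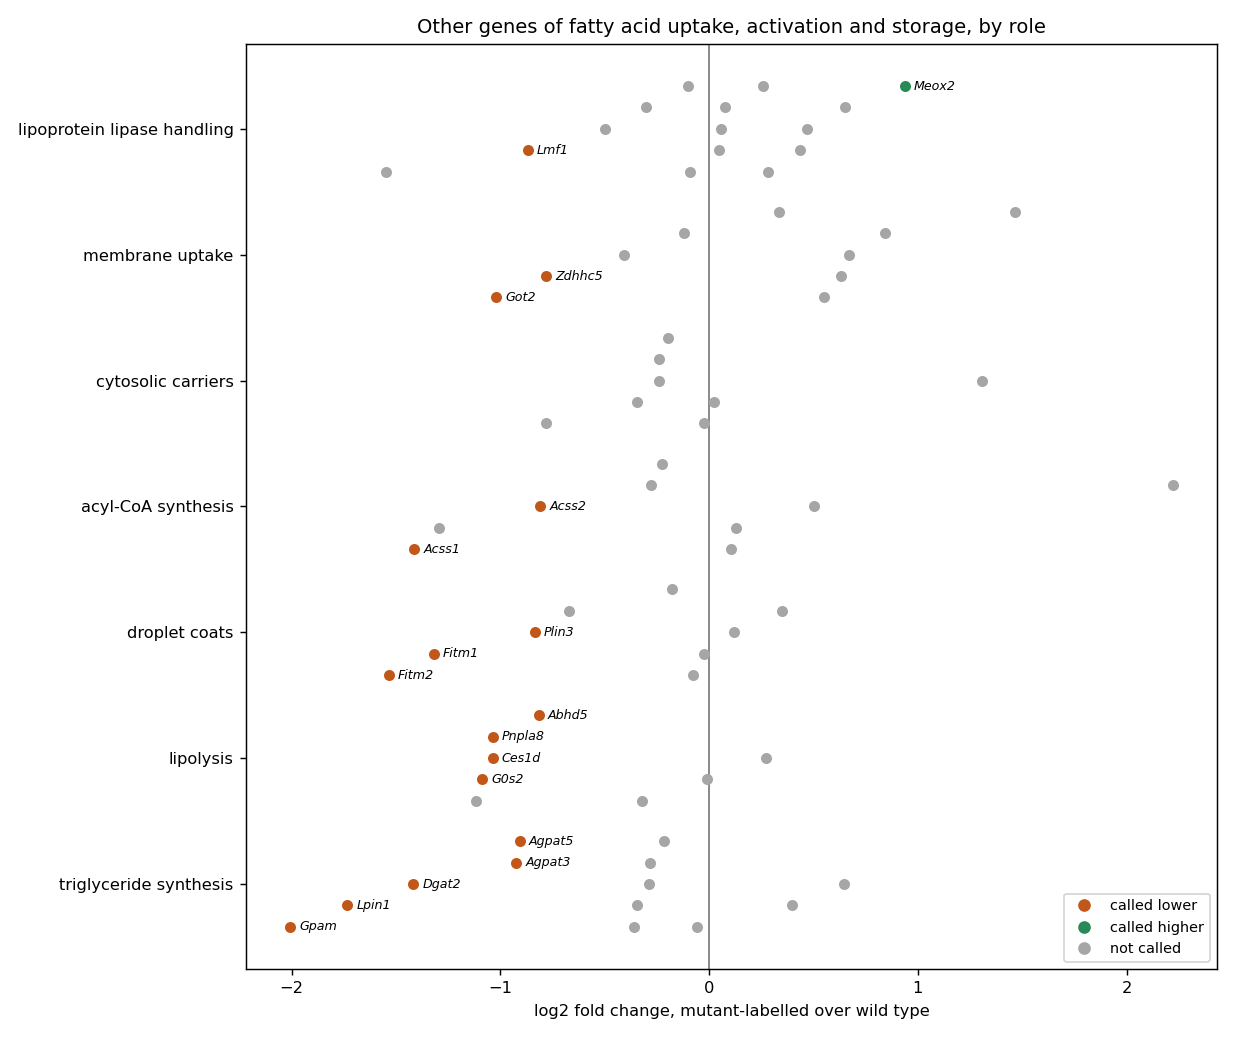
Log2 fold change, mutant over wild type, of the 72 tested genes in 7 roles (orange, called lower; green, called higher; grey, not called). Named points are the called genes: 17 lie to the left of 0 and Meox2 to the right.

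Of 13 tested genes of triglyceride synthesis, 5 fell, 0 rose and 8 did not pass (median −0.34). Gpam, the mitochondrial glycerol-phosphate acyltransferase that starts the pathway, had 62.0 and 73.6 CPM in wild type against 18.1 and 15.6 CPM, and fell by 2.01 on the log2 scale (SE 0.20, edgeR FDR 0.00529). Lpin1, a phosphatidate phosphatase, had 157 and 181 against 55.1 and 46.3 CPM (−1.73, edgeR FDR 0.00847). Both were called without each library in turn and with library totals. Dgat2, which makes the final step to triglyceride, fell by 1.42 (edgeR FDR 0.0175), while Dgat1, the other enzyme of that step, had a log2 fold change of −0.29 (edgeR FDR 0.383). Agpat3 and Agpat5, acyltransferases of the middle steps, fell by 0.92 (edgeR FDR 0.0360) and 0.91 (edgeR FDR 0.0448).

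Of 8 tested genes of lipolysis, 4 fell and 4 did not pass (median −0.93). They were Pnpla8, a phospholipase (−1.04, edgeR FDR 0.0248), Ces1d, a carboxylesterase (−1.04, edgeR FDR 0.0291), and the regulators of Pnpla2. Abhd5, its activator, had 30.4 and 24.7 against 14.9 and 16.5 CPM (−0.82, edgeR FDR 0.0498), and G0s2, its inhibitor, had 41.9 and 25.5 against 15.5 and 16.3 CPM (−1.09, edgeR FDR 0.0447). Both calls lay just under the threshold and were lost with library totals (Abhd5 −0.41, edgeR FDR 0.188; G0s2 −0.67, edgeR FDR 0.0969). The ratio of each to Pnpla2 overlapped between the groups (0.0335 and 0.0284 against 0.0274 and 0.0396 for Abhd5 per length; 0.167 and 0.106 against 0.103 and 0.142 for G0s2).

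Of 9 tested genes in the list of droplet coats, 3 fell and 6 did not pass (median −0.18). Of these, Fitm2 (−1.54, edgeR FDR 0.00954) and Fitm1 (−1.32, edgeR FDR 0.0323) are proteins of the endoplasmic reticulum that promote droplet formation and are no coats; the other was Plin3 (−0.84, edgeR FDR 0.0453). Of 9 tested genes of acyl-CoA synthesis, 2 fell and 7 did not pass (median −0.23). These were Acss1 (210 and 197 against 84.1 and 68.6 CPM, −1.41, edgeR FDR 0.0139) and Acss2 (−0.81, edgeR FDR 0.0496), which activate acetate and not long-chain fatty acids.

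Of 15 tested genes of lipoprotein lipase handling, Lmf1, which the lipase needs to fold, fell by 0.87 (39.6 and 31.3 against 19.3 and 19.5 CPM, edgeR FDR 0.0402), and Meox2 rose by 0.94 (20.4 and 17.3 against 34.8 and 37.4 CPM, edgeR FDR 0.0291). Meox2 and Tcf15 are transcription factors of capillary endothelium that together drive fatty acid uptake genes. Tcf15 had 23.7 and 19.2 against 33.3 and 25.8 CPM and was not called (edgeR FDR 0.201). The endothelial markers also summed higher in the mutant hearts (1253 and 1609 against 2152 and 1887 CPM). The part of this in the Meox2 value was not tested. Of 10 tested genes of membrane uptake, 2 fell: Got2, a mitochondrial aminotransferase also described as a fatty acid binding protein of the cell membrane (−1.02, edgeR FDR 0.0389), and Zdhhc5, which palmitoylates CD36 (−0.78, edgeR FDR 0.0451). Of 8 tested cytosolic carriers 0 were called; the most abundant were Dbi (log2 fold change −0.24, edgeR FDR 0.549) and Scp2 (−0.78, edgeR FDR 0.0799). An unadjusted p under 0.05 was reached by 7 of the 10 genes described first and by 27.8% of all tested genes.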

How the data were processed

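RNA from 4 heart samples was sequenced; the deposited values are raw counts per Ensembl gene. The submitters' processing notes name FastQC, HISAT2 and the build mm10, with no versions of the tools. No source used here gives the counting program, its annotation, strand setting or treatment of reads with several matches. Columns were matched to samples by title. Symbols and positions are from GENCODE M21 (GRCm38; 54723 of 54752 identifiers matched), levels per kb use the longest coding transcript of its basic set, and promoter windows are from RefSeq.

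After filterByExpr and TMM, the counts were fitted in edgeR 4.0.16 (R 4.3.3; glmQLFit, glmQLFTest; genotype the only term, 2 residual degrees of freedom), adjusted by Benjamini-Hochberg over all 15283 genes, threshold 0.05. The SE is the log2 fold change divided by the square root of F, without its sign. The TMM factors of wild type were 0.806 and 0.943, those of the mutant hearts 1.13 and 1.16. Mitochondrially encoded genes held 27.8% to 33.1% of counts. Libraries of a group differed beyond sampling noise (chi-square over degrees of freedom 51.1 in wild type, 11.5 in mutant, over genes with 10 counts or more), so no library was counted as a duplicate of another; this does not show that they came from separate animals. The 10 genes had at least 465 counts in each library. The steps were also run on simulated counts. These had the same dispersion for every gene and no length effect, so they do not cover the length effects of these libraries.

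Members and lists were chosen with earlier results of these data known. The text names all 10 genes; for every role in the wider list, the called genes with the lowest adjusted p (at most 4), and with 0 called the 2 of highest CPM; for marker lists, at most 2 called genes and the first 3, printed where they bear on a result; and Carm1. Agpat5, Dgat1, Tcf15, Acsl4, Acsl5, Cidea, Lipe, Ucp1, Lep, Retn, Slc27a4, Plin2, Plin4 and the copies of Fabp3 were added after their values were seen. The erythroid list had 5 genes tested and 0 called, and the fibroblast list 1 called (Postn, higher, log2 fold change 1.38, edgeR FDR 0.0189).

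Other settings tried were scaling by library totals, by upper quartiles or by DESeq2 size factors, dropping mitochondrially encoded genes, other filters, DESeq2 1.42.0 (Wald test), limma 3.58.1 (voom), an offset for transcript length and GC content, an FDR of 0.10, leaving out each library, and a block for the replicate number.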

Additional observations from a re-analysis of the deposited data

How the results depend on the processing

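Under the alternatives 0 of the 10 genes was called higher. Lower calls among them numbered 3 as reported and 6 with no filter on low counts, 6 by the DESeq2 Wald test, 7 with the length and GC offset, 5 at an FDR of 0.10, and between 0 and 7 when 1 library was left out (0 for mutant replicate 2, 7 for wild type replicate 1). The spread of a group left with 1 sample is then taken from the other group. The shares of all tested genes called lower in these settings are given in the results above. The median of the 10 genes was −0.40 with library totals. Values that changed sign were Lpl (0.018), Fabp4 (0.25), Gpihbp1 (0.36) and Dbi (0.17) with library totals, and Gpihbp1 with upper-quartile factors (0.018), with the length and GC offset (0.038), and when wild type replicate 1 (0.092) or mutant replicate 2 (0.063) was left out; leave-one-out values of Gpihbp1 ran from −0.21 to 0.092.

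In the wider list, lower calls (17) became 5 with library totals and 9 with upper-quartile factors, and ran from 2 to 26 without each library in turn. Higher calls (1, against 2.79% of all genes) became 8 with library totals (7.78%) and 2 with no filter (4.42%). They became 2 with a filter of 1 CPM in 2 libraries (3.35%) and 5 with the length and GC offset (7.77%). At an FDR of 0.10 they became 4 (7.05%), and they also varied without each library.

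Replicate numbers do not show which samples were paired. Deviations of same-numbered libraries correlated at −0.25 over genes. The replicate block gave 3 lower calls among the 10 genes and 11 lower calls in the wider list, against 4.2% of all tested genes. The crossed replicate block, added after the data were seen, gave 6 lower calls among the 10 and 21 lower and 6 higher calls in the wider list. Under this block 14% of all tested genes were lower and 13.3% higher, against 4.58% and 2.79% in the main fit. The ratios within libraries were also added then.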
